A study of Sus scrofa with 102 samples.

Results

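The genes described here code for the machinery of vesicle traffic and the Golgi apparatus. They were chosen by name: every array probe with 1 gene symbol was taken whose symbol belongs to the Rab, Arf and Arf-like GTPases and the proteins named after them, the COPI coat, the SEC and VPS proteins, the p24 (TMED) cargo receptors, the sorting nexins, the adaptor complexes, the syntaxins, the VAMPs, the TRAPP and exocyst subunits, or the golgins. Only deposited probes could be taken, which gave 55 probes of 48 genes, out of 2201 genes with 1 symbol on the 5449 probes tested. The study filtered its probes on variation, asking for over 20% of values beyond 1.5 times the median of the muscle arrays. That filter, applied again, passed 5340 of the 5449 probes and all 48 genes. Shares over all probes are therefore not shares over the whole array. Where a gene had several probes the one with the highest mean was used, as the study did for its own genes. Names such as *VPS72*, whose protein is known as a chromatin factor rather than a sorting protein, were kept because the rule took them.

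Cargo made in the endoplasmic reticulum leaves it in COPII-coated vesicles, and COPI-coated vesicles carry escaped residents back and connect the Golgi cisternae. Clathrin adaptors, retromer and the ESCRT machinery sort membrane proteins between the trans-Golgi, the cell surface, endosomes and lysosomes, while Rab and Arf GTPases mark the membranes and recruit the coats, and tethers and SNAREs let a vesicle dock and fuse. In muscle fibres and fat cells the same routes deliver the insulin-responsive glucose transporter GLUT4 to the surface, and they supply lysosomes and the secreted matrix.

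Expression had been measured in *Longissimus dorsi*, the loin muscle, of 102 pigs of an Iberian x Landrace backcross, with 1 porcine expression array per pig. All pigs were fed ad libitum. The groups were 55 females and 47 males, slaughtered in 3 batches of 14 pigs (8 females and 6 males), 70 pigs (36 and 34) and 18 pigs (11 and 7), at 171 to 184 days of age and with carcasses of 43.6 to 97.8 kg. Mean carcass weight was 65.9 kg in batch 1, 73.3 kg in batch 2 and 64.6 kg in batch 3. The pigs of batch 1 were also younger, with a mean of 175.1 days against 180.7 in batch 2 and 180.6 in batch 3. Pigs of the cross are related, and the p-values treat them as independent samples.

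Values are deposited log2 intensities, so that a difference of 1 is a doubling, and the brightness of different probes cannot be compared. Differences between batches, differences between the sexes and slopes on carcass weight came from 1 limma model of sex, batch and weight over all 5449 probes, and a gene was called at a Benjamini-Hochberg adjusted p under 0.05. For batch the call and the p printed with it come from an F test over both differences, unless said otherwise, while counts of lower and higher genes rest on each difference tested alone. Where batch differences are given together, the first is batch 1 minus batch 2 and the second batch 3 minus batch 2, with the SE of the fit. The mean level of the 48 probes over all pigs lay between 3.37 and 11.57, and 4 of them (*RAB4B*, *VPS52*, *AP1B1* and *AP3D1*) had a mean under 4, near the bottom of the scale. The SD over pigs lay between 0.45 and 1.22.

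Some measured features of the arrays bear on what follows. Actin has control probes at its 5′ end and in its middle, and the first minus the second, which falls as RNA is degraded, was −1.28 ± 0.30 (SD, n = 14) in batch 1, −0.80 ± 0.29 (n = 70) in batch 2 and −1.32 ± 0.43 (n = 18) in batch 3, so that batches 1 and 3 both had the lower values. Arrays correlated with one another with a median r of 0.897, and 1 array of a male of batch 3 stood apart at 0.748. On 3 arrays labelled female, all of batch 2, the Y-linked gene *EIF1AY* read between 8.13 and 10.09, against 2.79 to 6.63 in the other 52 females and 9.38 to 11.11 in the males, and these arrays were kept under their label and left out in an alternative. The slow-fibre genes *TNNT1*, *TNNC1*, *TNNI1* and *MYL3* were bright, with a mean between 10.70 and 14.59 in each pig. Of the 7 general and fast-fibre markers 0 had a deposited probe with 1 symbol.

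**Figure D1:**
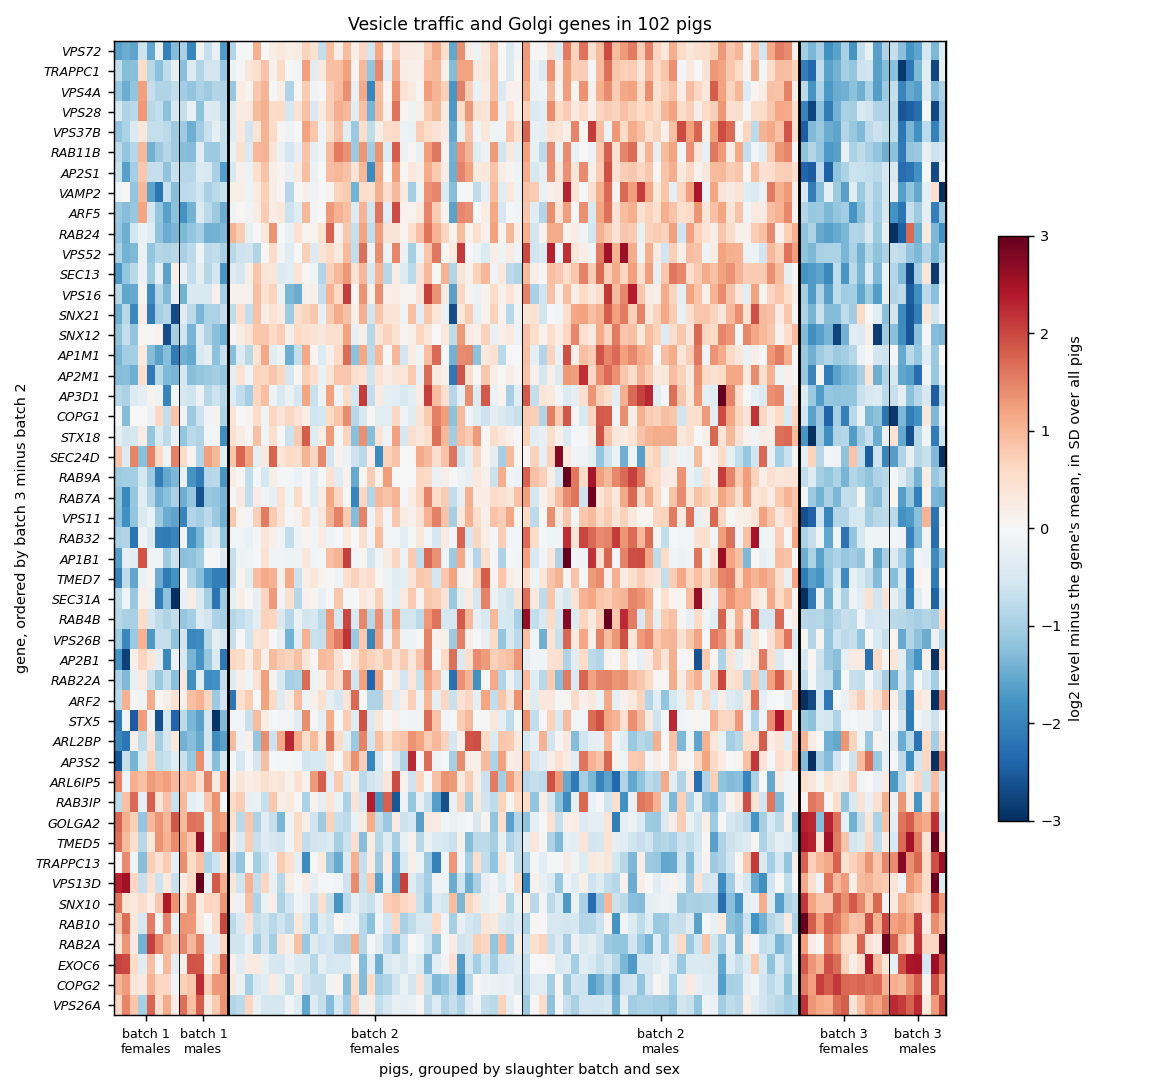
Level of each of the 48 genes (rows) in each of the 102 pigs (columns, grouped by slaughter batch and sex), as the log2 level minus the gene's mean in SD units. Batches 1 and 3 differ from batch 2 in nearly every row, with 36 genes lower and 10 higher in batch 3 than in batch 2 when that difference was tested alone.

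More of these genes differed between slaughter batches than between the sexes or with carcass weight. Of the 48 genes 47 differed between the batches, a share of 97.9% beside 86.6% of all probes, and only *RAB3IP*, which codes for a Rab activator (adjusted p = 0.0835), was not called. With each difference tested alone, 34 of the 48 genes (70.8%) were lower in batch 1 than in batch 2, beside 41.5% of all probes, and 11 (22.9%) were higher, beside 32.7%. In batch 3, 36 genes (75.0%) were lower than in batch 2, beside 45.3% of all probes, and 10 (20.8%) were higher, beside 36.2%. Besides *RAB3IP*, *SEC24D* and *ARF2* did not pass in batch 1, nor *ARL6IP5* in batch 3. Both comparisons use the same 70 pigs of batch 2, so that they are not independent of each other. The median difference of the 48 genes was −0.70 in batch 1 and −0.67 in batch 3, and over all probes it was −0.11 and −0.17. With age as a further effect 47 genes were called, beside 83.6% of all probes, and the medians of the 48 genes were −0.64 and −0.67. After quantile normalization, which removed that general shift (medians of 0.01 and −0.01), the medians of the 48 genes were −0.60 and −0.52. In bulk muscle a lower level can mean fewer cells that use the gene or less of its RNA per cell, and these cannot be told apart.

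RNA integrity was read only through the actin difference, which was lower on average in batches 1 and 3 than in batch 2. The part of RNA integrity in the batch differences was not tested. The model was repeated with the actin difference of each array as a further effect. Then 44 of the 48 genes were called, beside 76.9% of all probes, with median differences of −0.50 and −0.48. *AP3S2*, *RAB22A* and *RAB4B* were lost besides *RAB3IP*. With the mean of all probes of each array in the model instead, 37 genes were called, beside 69.3% of all probes, with medians of −0.32 and −0.40. *ARF2*, *RAB4B*, *RAB11B*, *RAB22A*, *SEC31A*, *VAMP2*, *VPS26B*, *AP1B1*, *AP3D1* and *AP3S2* were lost besides *RAB3IP*. In that model the difference was smaller by over 1.5 times, or turned, for 24 of the 48 genes in batch 1 and for 26 in batch 3, and with the actin difference for 16 and 12. With each difference tested alone beside the array mean, 25 genes were lower and 9 higher in batch 1, beside 30.2% and 28.0% of all probes, and 23 were lower and 10 higher in batch 3, beside 30.0% and 29.9%. Within batches, that is, after sex, batch and weight, 25 of the 48 genes (52.1%) rose with the actin difference, beside 27.6% of all probes, and 8 (16.7%) fell with it, beside 25.2%. Of 4 slow-fibre genes 0 differed in batch 1, and *TNNC1* was higher in batch 3, by 0.50. *TNNT1*, *TNNI1* and *MYL3* gave 0.22, −0.35 and −0.16 there and were not called. Counts of called marker genes stand beside 41.5% lower and 32.7% higher over all probes in batch 1, and 45.3% and 36.2% in batch 3. Of the markers of other cell types, 3 of 4 fibroblast genes were higher and 1 lower in batch 1 than in batch 2, and 2 were higher and 1 lower in batch 3. Of 4 endothelial genes 1 was higher and 0 lower in batch 1, and 0 were higher and 2 lower in batch 3. Of 3 macrophage genes 2 were higher and 0 lower in batch 1, and 0 were higher and 1 lower in batch 3. Of 3 adipocyte genes 0 differed in batch 1, and 1 was higher (*FABP4*, 0.60) and 1 lower (*LPL*, −0.49) in batch 3. The endothelial and macrophage genes higher in batch 1 (*PECAM1*, *CD163* and *AIF1*) were not those lower in batch 3 (*CLDN5*, *VWF* and *C1QA*). The former gave 0.03, −0.06 and −0.005 in batch 3, and the latter −0.40, −0.22 and −0.30 in batch 1. None of these values was called. The mean level of the fibroblast genes spanned 7.59 to 8.64 in batch 1, 6.97 to 9.01 in batch 2 and 7.10 to 8.68 in batch 3. For the endothelial genes these ranges were 6.18 to 7.76, 5.89 to 8.64 and 5.92 to 7.17, for the adipocyte genes 7.14 to 8.54, 6.84 to 9.57 and 6.95 to 9.53, and for the 3 macrophage genes 3.33 to 7.13, 3.22 to 6.50 and 3.55 to 5.09. The part of these cells in the batch differences was not tested.

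**Figure D2:**
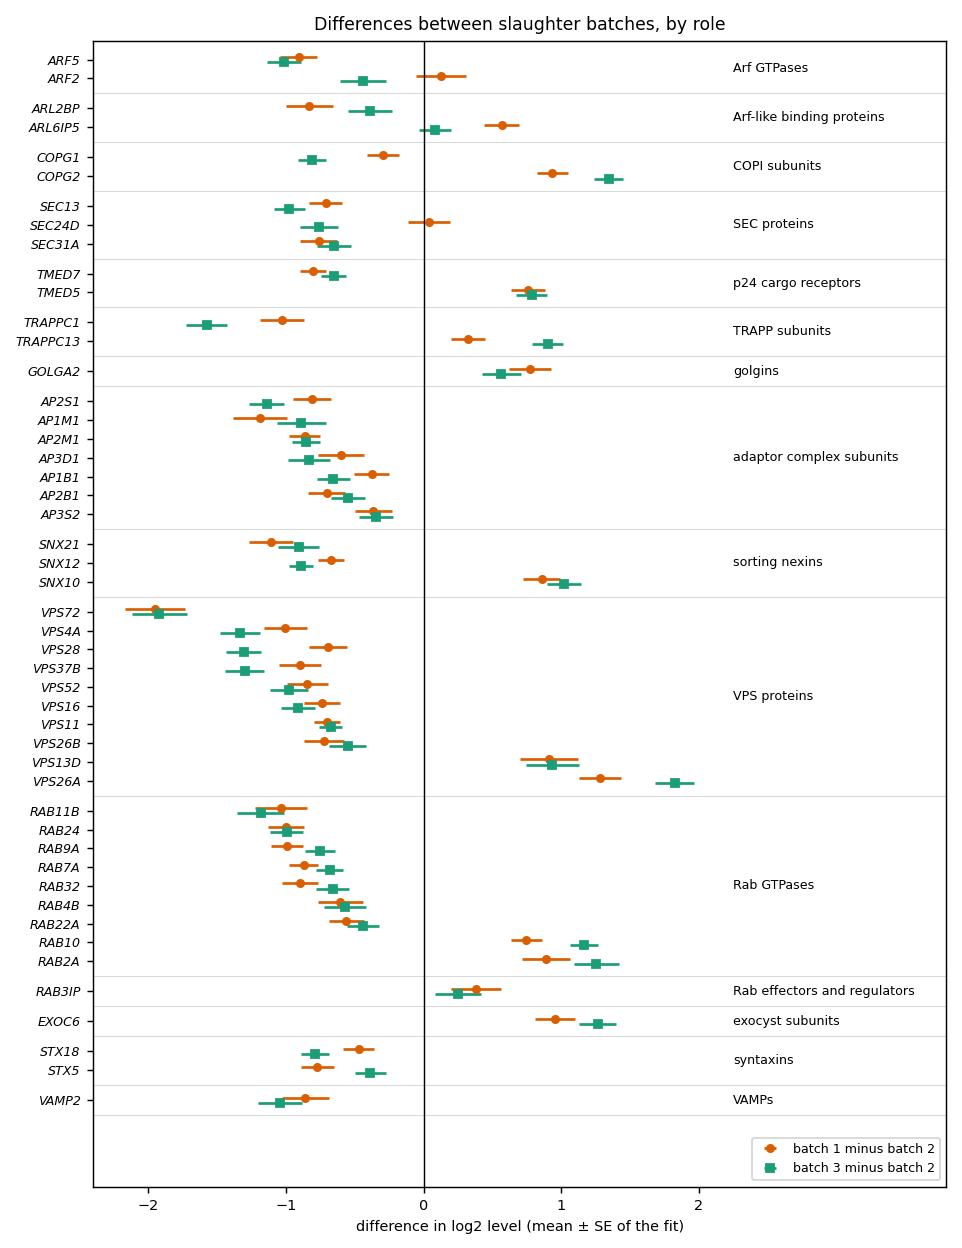
Difference in log2 level between batch 1 and batch 2 (circles) and between batch 3 and batch 2 (squares) for each gene, with the standard error of the fit, grouped by role. All 7 adaptor subunits lie to the left of 0 in both comparisons, whereas COPI, p24 and TRAPP each hold 1 gene on either side.

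The COPI coat, which takes proteins back from the Golgi to the endoplasmic reticulum, was represented by the alternative forms of its gamma subunit, and they moved in opposite directions. *COPG2* had the largest F of the 48 genes. It read 5.10 to 6.75 (median 5.96) in batch 2, 6.28 to 7.84 (median 6.86) in batch 1 and 6.40 to 7.77 (median 7.46) in batch 3. Its batch 3 range thus overlapped that of batch 2 only at the edge. The fitted difference was 0.94 ± 0.11 (SE) in batch 1 and 1.35 ± 0.10 in batch 3 (limma, adjusted p = 3.25e-22). *COPG1* read 6.87 to 8.53 (median 7.70) in batch 2, 6.84 to 7.90 (median 7.42) in batch 1 and 6.07 to 7.65 (median 6.82) in batch 3. It was lower, at −0.30 ± 0.11 and −0.81 ± 0.10 (limma, adjusted p = 1.38e-10), and its ranges overlapped. With the actin difference in the model the values of *COPG1* were −0.29 and −0.80, and those of *COPG2* were 0.73 and 1.12. With the array mean instead they were −0.13 and −0.60 for *COPG1* and 0.79 and 1.16 for *COPG2*. The batch 1 difference of *COPG1*, tested alone in that model, was not called (limma, adjusted p = 0.382).

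**Figure D3:**
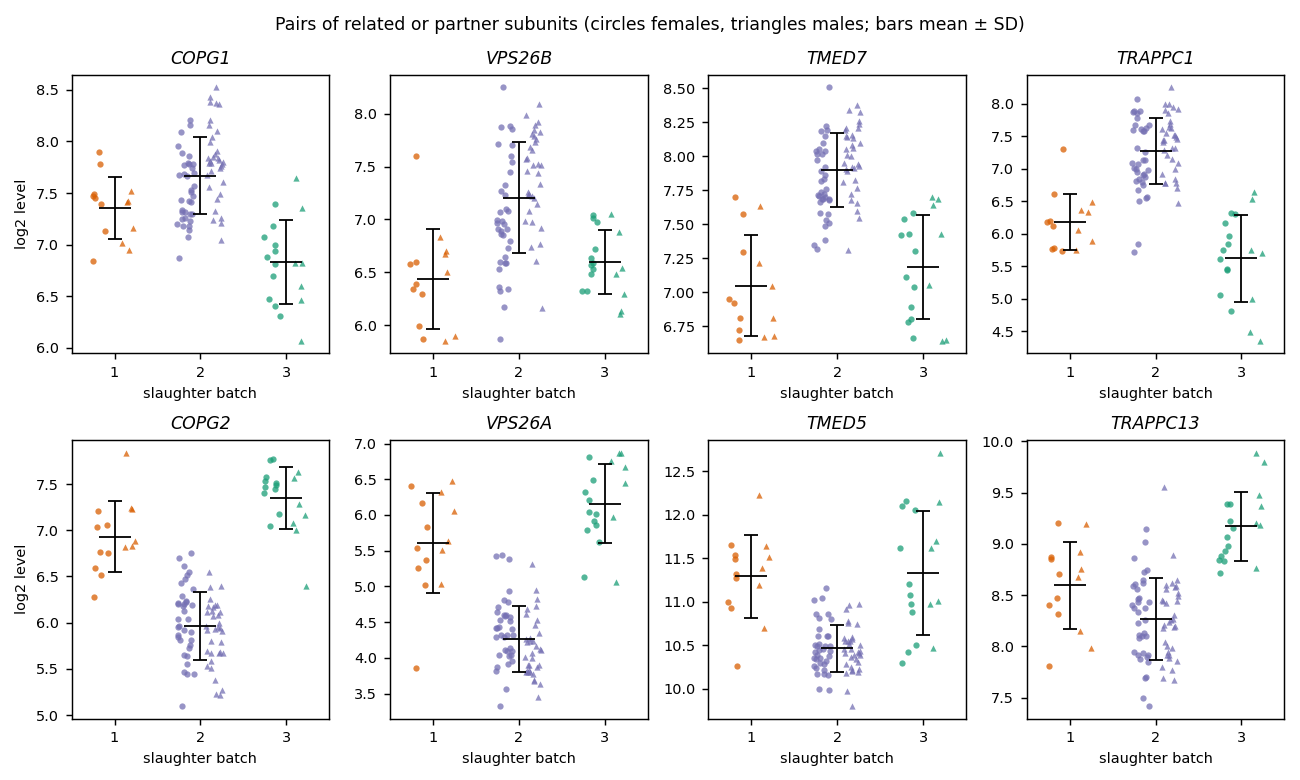
Log2 level of 8 genes in every pig by slaughter batch, with females as circles, males as triangles and bars for the mean and SD of each batch. In the upper row (*COPG1*, *VPS26B*, *TMED7* and *TRAPPC1*) batch 3 has a lower mean than batch 2, and in the lower row (*COPG2*, *VPS26A*, *TMED5* and *TRAPPC13*) a higher one.

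The COPII coat is built of an inner layer that holds cargo, to which SEC24D belongs, and an outer cage of SEC13 and SEC31 proteins. *SEC13*, which the study also took into its expression mapping, read 6.75 to 8.29 (median 7.69) in batch 2, 6.25 to 7.39 (median 6.84) in batch 1 and 5.59 to 7.50 (median 6.51) in batch 3. Every pig of batches 1 and 3 lay below the median of batch 2. The differences were −0.71 ± 0.12 and −0.97 ± 0.11 (limma, adjusted p = 3.55e-14). *SEC31A* was lower in both, at −0.76 and −0.65, but gave −0.31 and −0.06 with the array mean in the model and was then not called (adjusted p = 0.0818). *SEC24D* was lower in batch 3, at −0.76 ± 0.14 (limma, adjusted p = 1.62e-06 over both differences). In batch 1 it gave 0.04 ± 0.15, which turned to −0.19 with the actin difference and to −0.07 with the array mean.

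The p24 proteins sit in both kinds of vesicle and recruit cargo. *TMED7* read 7.31 to 8.51 (median 7.92) in batch 2, 6.65 to 7.70 (median 6.93) in batch 1 and 6.64 to 7.70 (median 7.20) in batch 3. The differences were −0.80 ± 0.10 and −0.65 ± 0.09 (limma, adjusted p = 4.89e-15). *TMED5* moved the other way. It read 9.80 to 11.16 (median 10.43) in batch 2, 10.26 to 12.22 (median 11.35) in batch 1 and 10.29 to 12.71 (median 11.14) in batch 3, a difference of 0.76 ± 0.12 and 0.79 ± 0.11 (limma, adjusted p = 1.45e-11).

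The TRAPP complexes tether vesicles at the Golgi and activate Rab GTPases. The core subunit gene *TRAPPC1* read 5.72 to 8.25 (median 7.32) in batch 2, 5.74 to 7.31 (median 6.15) in batch 1 and 4.36 to 6.64 (median 5.72) in batch 3. It was lower, at −1.03 ± 0.16 and −1.58 ± 0.15 (limma, adjusted p = 1.35e-17). *TRAPPC13*, a subunit of a larger form of the complex, was higher by 0.32 ± 0.12 and 0.90 ± 0.11 (limma, adjusted p = 3.86e-11). Its range in batch 3, 8.71 to 9.89, lay within the upper part of the batch 2 range of 7.42 to 9.55 and above it. With the array mean in the model *TRAPPC13* gave 0.11 and 0.62. Its batch 1 difference, tested alone in that model, was not called (limma, adjusted p = 0.520).

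*GOLGA2* codes for GM130, a golgin of the cis-Golgi, and was read by 4 probes that did not move together. The probe with the highest mean read 7.46 to 9.42 (median 8.53) in batch 2, 8.02 to 9.90 (median 9.44) in batch 1 and 7.85 to 10.19 (median 9.36) in batch 3, and was higher by 0.77 ± 0.15 and 0.56 ± 0.14 (limma, adjusted p = 1.10e-06). A second probe made from the same transcript record was higher by 0.54 and 0.34 and followed the first with r = 0.92 after sex, batch and weight. The other 2 probes, made from different records, were lower: the one at −0.69 and −0.63 (adjusted p = 4.37e-16), the other at −1.36 and −1.47 (adjusted p = 1.26e-24). They had r = 0.61 with each other and r between −0.33 and −0.16 with the first 2. The direction for *GOLGA2* therefore depended on the probe, and it is counted among the higher genes only through the rule on the highest mean. For the other 4 genes with a second probe (*ARL6IP5*, *RAB11B*, *VPS4A* and *AP2S1*) both probes gave the same direction in each comparison between batches, with r between 0.48 and 0.94.

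All 7 subunits of the adaptor complexes were called and lower in batch 1 and in batch 3, beside 41.5% and 45.3% of all probes. AP-2 takes clathrin to the plasma membrane. Its medium subunit gene *AP2M1* read 8.95 to 11.32 (median 10.38) in batch 2, 8.99 to 10.39 (median 9.46) in batch 1 and 8.89 to 10.34 (median 9.46) in batch 3. The medians of batches 1 and 3 were the same to the second decimal, and the differences were −0.86 ± 0.11 and −0.86 ± 0.10 (limma, adjusted p = 2.25e-15). The small subunit gene *AP2S1* was lower, at −0.81 and −1.14, and the large subunit gene *AP2B1* at −0.71 and −0.55. *AP1M1* and *AP1B1*, of the trans-Golgi complex AP-1, were lower, at −1.19 and −0.89 and at −0.38 and −0.66. With the array mean in the model *AP1M1* was called at −0.44 and 0.08, so that its batch 3 value turned. *AP3D1* and *AP3S2*, of the lysosome-directed complex AP-3, gave −0.60 and −0.83 and −0.37 and −0.34. *AP1B1* and *AP3D1* are among the dim probes, and with the array mean in the model neither they nor *AP3S2* were called.

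Retromer and the sorting nexins retrieve receptors from endosomes. *VPS26A* and *VPS26B* code for alternative forms of the same retromer subunit, and again the forms moved apart. *VPS26A* read 3.33 to 5.44 (median 4.24) in batch 2, 3.87 to 6.48 (median 5.58) in batch 1 and 5.06 to 6.87 (median 6.12) in batch 3. It was higher by 1.28 ± 0.16 and 1.82 ± 0.14 (limma, adjusted p = 4.59e-22), the largest rise among the 48 genes in each comparison. *VPS26B* read 5.87 to 8.25 (median 7.23) in batch 2, 5.86 to 7.60 (median 6.45) in batch 1 and 6.11 to 7.05 (median 6.56) in batch 3, with differences of −0.72 ± 0.14 and −0.55 ± 0.13 (limma, adjusted p = 8.94e-07). With the array mean in the model *VPS26A* kept 0.94 and 1.38, while *VPS26B* gave −0.29 and 0.02 and was no longer called (adjusted p = 0.112).

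Among the sorting nexins *SNX12* read 6.50 to 7.74 (median 7.16) in batch 2, 5.62 to 6.98 (median 6.45) in batch 1 and 5.52 to 7.00 (median 6.26) in batch 3. It was lower, at −0.68 ± 0.09 and −0.89 ± 0.09 (limma, adjusted p = 1.25e-17), and the medians of batches 1 and 3 lay below the lowest pig of batch 2. *SNX21* was lower, at −1.11 and −0.91. *SNX10*, known for its part in endosomes and in bone resorption, was higher by 0.86 ± 0.13 and 1.02 ± 0.12 (limma, adjusted p = 1.10e-13).

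The ESCRT machinery buds vesicles into endosomes for delivery to the lysosome, and its 3 genes were lower in both batches. *VPS28* read 7.51 to 9.88 (median 9.14) in batch 2, 7.86 to 9.66 (median 8.21) in batch 1 and 6.77 to 8.70 (median 7.91) in batch 3, differences of −0.69 ± 0.14 and −1.31 ± 0.13 (limma, adjusted p = 3.72e-16). *VPS4A*, the ATPase that takes the machinery apart, read 6.40 to 9.40 (median 8.47) in batch 2, 6.78 to 8.94 (median 7.23) in batch 1 and 6.39 to 7.66 (median 6.88) in batch 3. The differences were −1.01 ± 0.16 and −1.33 ± 0.15 (limma, adjusted p = 3.64e-15). *VPS37B* gave −0.90 and −1.30. The tether genes *VPS11* and *VPS16*, whose products act in fusion with lysosomes, were lower, at −0.70 and −0.67 and at −0.74 and −0.91. *VPS52*, of a tether for traffic back to the Golgi, gave −0.85 and −0.98, and *VPS13D*, which codes for a lipid transfer protein, was higher by 0.91 and 0.94.

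*VPS72* had the largest fall of the 48 genes, although its product works on chromatin. It read 5.84 to 10.12 (median 8.37) in batch 2, 5.25 to 7.62 (median 6.04) in batch 1 and 5.52 to 7.46 (median 6.33) in batch 3. The differences were −1.95 ± 0.22 and −1.92 ± 0.20 (limma, adjusted p = 2.28e-18), and with the actin difference in the model they were −1.53 and −1.47.

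Of the 9 Rab GTPases 7 were called and lower in batch 1 and 7 in batch 3, beside 41.5% and 45.3% of all probes. *RAB24*, a GTPase of late autophagy, read 4.74 to 6.38 (median 5.55) in batch 2, 4.24 to 5.09 (median 4.39) in batch 1 and 3.08 to 6.34 (median 4.39) in batch 3. The differences were −1.0 ± 0.13 and −0.99 ± 0.12 (limma, adjusted p = 4.51e-15). *RAB7A* and *RAB9A*, of the late endosome, were lower, at −0.87 and −0.68 and at −0.99 and −0.75, and *RAB11B*, of recycling endosomes, at −1.04 and −1.18. With the array mean in the model *RAB11B* gave −0.46 and −0.43 and was no longer called (adjusted p = 0.0630). *RAB10*, a GTPase known from GLUT4 delivery in fat cells, went the other way. It read 6.17 to 7.66 (median 6.94) in batch 2, 6.96 to 8.52 (median 7.72) in batch 1 and 7.42 to 9.46 (median 8.08) in batch 3, higher by 0.75 ± 0.11 and 1.17 ± 0.10 (limma, adjusted p = 1.25e-18). *RAB10* was higher still with the actin difference in the model, by 0.87 and 1.30. *RAB2A*, of the route between endoplasmic reticulum and Golgi, was higher by 0.89 and 1.26, which fell to 0.39 and 0.61 with the array mean in the model.

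The Arf GTPase gene *ARF5* was lower, at −0.91 ± 0.13 and −1.01 ± 0.12 (limma, adjusted p = 2.41e-14), and *ARF2* gave 0.13 and −0.44 (adjusted p = 0.0184). *ARF2* read 4.98 to 7.45 (median 6.46, SD 0.43) in batch 2 and 2.96 to 7.36 (median 6.40, SD 1.14) in batch 3. Its medians thus lay close, while its spread was wider in batch 3. Of the Arf-like binding proteins, *ARL2BP* was lower, at −0.83 ± 0.17 and −0.39 ± 0.16 (limma, adjusted p = 2.48e-05), and *ARL6IP5* was higher by 0.57 ± 0.13 in batch 1 and gave 0.08 ± 0.12 in batch 3. *EXOC6*, a subunit of the exocyst that tethers vesicles at the plasma membrane, read 3.92 to 5.73 (median 4.82) in batch 2, 4.90 to 6.64 (median 5.74) in batch 1 and 4.78 to 7.03 (median 6.26) in batch 3. It was higher by 0.95 ± 0.14 and 1.27 ± 0.13 (limma, adjusted p = 6.89e-16). The SNARE genes were all lower: *STX18* at −0.47 ± 0.11 and −0.79 ± 0.10 (limma, adjusted p = 6.16e-11), *STX5* at −0.77 and −0.39 (−0.48 and −0.01 with the array mean), and *VAMP2* at −0.86 ± 0.17 and −1.04 ± 0.16 (limma, adjusted p = 4.86e-10). The values of *VAMP2*, the vesicle SNARE of GLUT4 delivery, dropped to −0.26 in each with the array mean in the model and were no longer called (adjusted p = 0.284).

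Other genes of the same routes came from lists made by function, and their counts stand beside the 41.5% and 45.3% of all probes that were lower in batches 1 and 3. Of 12 measured Rab and Arf regulators 10 were lower in batch 1 and 10 in batch 3, led by *TBC1D17* (−1.16 and −1.21) and *ARFGAP2* (−1.45 and −1.89), both GTPase-activating proteins. Of 11 coat and cargo genes 7 were lower in each comparison and 3 higher. *LMAN2*, a cargo lectin, gave −0.62 and −1.14, and *PREB*, which starts COPII assembly, gave −0.96 and −0.86. Of 7 further fusion and tethering genes 6 were lower in batch 1 and 5 in batch 3, among them the carrier membrane proteins *SCAMP2* (−1.23 and −1.20) and *SCAMP3* (−0.91 and −1.41). The 9 endosome, lysosome and recycling genes were split, with 3 lower and 4 higher in batch 1 and 4 lower and 2 higher in batch 3, so that their share of lower genes lay near or under that of all probes. *CHMP1B*, an ESCRT gene, was higher by 0.50 and 0.96, and *WASHC1* was lower, at −1.38 and −1.03.

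Sex differences were fewer and smaller. Of the 48 genes 13 were called (27.1%), beside 26.1% of all probes. Females were lower for 9 genes (18.8%), beside 14.4% of all probes, and higher for 4 (8.33%), beside 11.7%, so that the shares lay near the background. The genes higher in females were *ARL6IP5*, *ARL2BP*, *AP2B1* and *SNX10*, and those lower in females were *RAB9A*, *RAB32*, *SEC13*, *VPS72*, *AP1M1*, *VPS52*, *SNX21*, *VPS37B* and *VAMP2*.

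**Figure D4:**
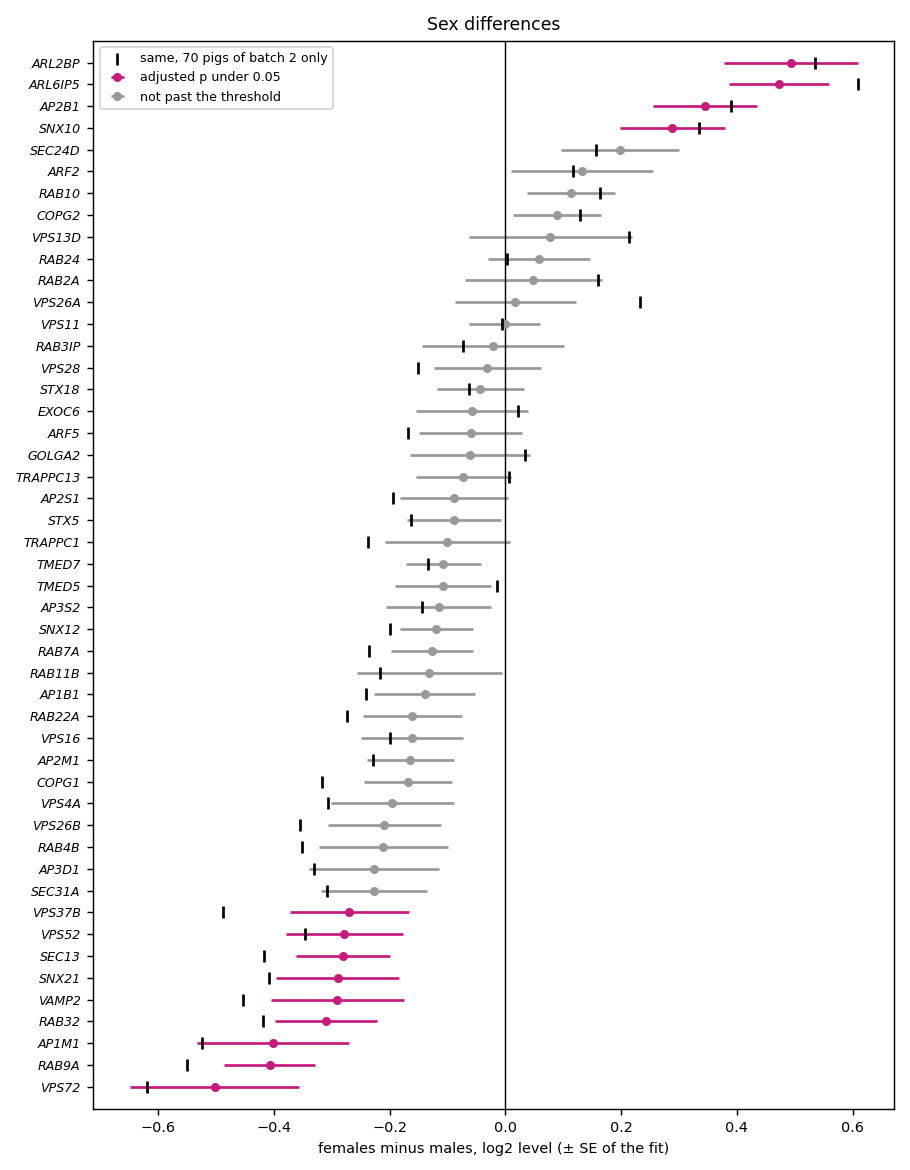
Difference between females and males in log2 level for each gene from all 102 pigs, with the standard error of the fit, and the same difference in the 70 pigs of batch 2 (bars). The 13 called genes are coloured, and each keeps its side of 0 within batch 2.

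*ARL6IP5*, whose product resides in the endoplasmic reticulum and is known to restrain glutamate transporters, read 8.75 to 10.26 (median 9.43) in females and 8.06 to 10.24 (median 8.86) in males. The ranges overlapped, but the lowest female lay close to the median of the males. Females were higher by 0.47 ± 0.09 (SE; limma, adjusted p = 2.64e-05), and by 0.61 within batch 2. Its second probe gave 0.42 (adjusted p = 0.000139). *ARL2BP*, a partner of the GTPase ARL2, read 7.78 to 10.84 (median 9.58) in females and 7.76 to 10.53 (median 9.07) in males, higher in females by 0.49 ± 0.12 (adjusted p = 0.000886). The Arf-like binding proteins were the only role class in which every gene was called and higher in females, and the class holds 2 genes. *AP2B1* was higher by 0.35 ± 0.09 (adjusted p = 0.00262) while no other AP-2 gene was called, and *SNX10* by 0.29 ± 0.09 (adjusted p = 0.0127).

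*RAB9A* read 6.92 to 8.85 (median 8.01) in females and 6.89 to 10.02 (median 8.34) in males. It was lower in females, at −0.41 ± 0.08 (adjusted p = 6.25e-05). *RAB32*, known from the traffic of pigment and other lysosome-related organelles, was lower, at −0.31 ± 0.09 (adjusted p = 0.00552). *SEC13* read 6.15 to 8.07 (median 7.13) in females and 5.59 to 8.29 (median 7.73) in males, and was lower, at −0.28 ± 0.08 (adjusted p = 0.00637). In batch 2 alone its difference was −0.42, with females at 6.75 to 8.07 (median 7.41) and males at 7.14 to 8.29 (median 7.77). *VPS72* was lower, at −0.50 ± 0.15 (adjusted p = 0.00687), and at −0.36 and not called with the array mean in the model. In batch 2 alone 18 of the 48 genes were called, beside 32.4% of all probes, 14 lower and 4 higher in females. With the array mean in the model 7 were called, beside 17.1% of all probes, 3 lower and 4 higher. Without the 3 arrays that read *EIF1AY* like males 11 were called, beside 25.4% of all probes. Of the 4 probes of *GOLGA2*, 1 of those that were lower in batches 1 and 3 was lower in females (−0.22, adjusted p = 0.0423), and the other 3, at −0.12 to −0.06, were not called. The mean actin difference was −0.97 in females and −0.94 in males.

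In the related lists 4 of the 12 Rab and Arf regulators were called and lower in females, beside 14.4% of all probes, with *TBC1D20* at −0.48 ± 0.09 (adjusted p = 7.83e-05) and *TBC1D1*, a regulator of GLUT4 vesicles in muscle, at −0.44 ± 0.11 (adjusted p = 0.00208). Of the 9 endosome genes 2 were called and lower, beside the same 14.4%, the transferrin receptor gene *TFRC* at −0.90 ± 0.29 (adjusted p = 0.0142) and *CAV2* at −0.25 ± 0.09 (adjusted p = 0.0367). *SCAMP2* was lower, at −0.20 (adjusted p = 0.0392), and *GOLT1B* gave 0.21 (adjusted p = 0.0651). No coat and cargo gene was called, and *GGA3* (adjusted p = 0.0530) and *GGA2* (adjusted p = 0.133) had the smallest p. Beside these stand the endothelial gene *PECAM1*, lower in females, at −0.29, and the adipocyte gene *ADIPOQ* and the fibroblast gene *DCN*, higher by 0.65 and 0.27. Each was the only called gene of its list of 4, 3 and 4. *ADIPOQ* was dim, with a mean of 2.49 to 3.06 in the batches, and the other adipocyte genes gave −0.23 (*FABP4*) and −0.04 (*LPL*) and were not called. The mean level of the endothelial genes spanned 5.89 to 7.47 in females and 5.92 to 8.64 in males, that of the adipocyte genes 6.84 to 9.57 and 6.95 to 9.53, and that of the fibroblast genes 6.97 to 9.01 and 7.08 to 8.67. The part of these cells in the sex differences was not tested.

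Carcass weight called 0 of the 48 genes, as it called 0 of the 5449 probes (0.0%) by limma. At an unadjusted p under 0.05 there were 5 of the 48 genes and 10.8% of all probes. The smallest p belonged to *SEC24D* (slope per 10 kg −0.14 ± 0.05, p = 0.0103 and adjusted p = 0.399 by limma), *TMED5* (−0.10 ± 0.04, adjusted p = 0.431) and *AP3S2* (0.11 ± 0.05, adjusted p = 0.442). In the related lists *KDELR3* (−0.14), *KDELR2* (0.07), *COG4* (0.07), *SCAMP2* (0.06), *TBC1D17* (0.12), *ARFGAP3* (0.10), *CAV1* (−0.13) and *CAV2* (−0.09) had the smallest p, and none was called. Batches differ in weight, and a model of weight alone, without sex and batch, called 42 of the 48 genes, beside 62.6% of all probes.

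Whether the sex difference depended on the batch was tested directly, and 0 of the 48 genes and 0.0% of all probes were called by limma. The smallest p among the 48 were those of *VPS37B* (p = 0.0144, adjusted p = 0.608 by limma), *RAB9A* (adjusted p = 0.610) and *VPS26A* (adjusted p = 0.636). An unadjusted p under 0.05 was found for 6 of the 48, beside 425 of the 5449 probes. Whether the slope on weight differed between the sexes was likewise tested, with 0 of 48 genes and 0.0% of all probes called by limma. At an unadjusted p under 0.05 there were 4 of the 48, beside 5.36% of all probes. *ARF2* came nearest, with a slope greater in females by 0.42 per 10 kg (p = 0.000521, adjusted p = 0.377 by limma), before *TMED5* (−0.19, adjusted p = 0.847) and *RAB2A* (0.26, adjusted p = 0.914).

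Within batches, sexes and weights the genes still varied together from pig to pig. With *SEC13* as a further effect in the model, 29 of the other 47 genes (61.7%) rose with it, beside 30.1% of all probes, and 7 (14.9%) fell with it, beside 28.6%. The strongest positive relations, as Pearson's r over 102 pigs after sex, batch and weight, were with *AP2S1* (r = 0.61, Spearman's rho = 0.58), *VPS28* (0.54, rho = 0.48), *TRAPPC1* (0.53, rho = 0.47), *AP3D1* (0.52, rho = 0.52) and *VPS72* (0.51, rho = 0.49). For *AP2S1*, *VPS28*, *TRAPPC1* and *AP3D1* both permutation p were 1e-05, the smallest that 100000 permutations can give, and for *VPS72* they were 1e-05 and 2e-05. Without the 2 pigs farthest from the median of *SEC13* these r were 0.56, 0.49, 0.48, 0.49 and 0.49, and within batch 2 alone 0.53, 0.47, 0.49, 0.51 and 0.48. Within batch 1 they ranged from 0.38 to 0.70 and within batch 3 from 0.56 to 0.77.

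The strongest negative relations with *SEC13* were those of *EXOC6* (r = −0.46, rho = −0.42, permutation p = 1e-05 and 2e-05), *SNX10* (−0.35, rho = −0.33, p = 0.00045 and 0.00067 by permutation), *TMED5* (−0.35, rho = −0.28, p = 0.00029 and 0.00463 by permutation), *VPS13D* (−0.32, rho = −0.29, p = 0.00097 and 0.00287 by permutation) and *ARL6IP5* (−0.32, rho = −0.35, p = 0.00107 and 0.00029 by permutation). Over all probes the limma adjusted p of these 5, taken as the larger of both directions of the fit, lay between 2.83e-05 and 0.0120. *TMED5* had r = −0.21 without the 2 farthest pigs and −0.16 within batch 2, and *VPS13D* −0.24 and −0.20, whereas *EXOC6* had −0.40 and −0.35. The second probe of *ARL6IP5* had r = 0.04 with *SEC13*, so that this relation rested on the probe. After removal of the first 2 principal components of the arrays, r was 0.31, 0.19, 0.16, 0.26 and 0.16 for the 5 positive relations, in the order given, and −0.22, −0.19, −0.15, −0.20 and −0.31 for the negative ones. With the actin difference in the model 26 of the 47 genes were called beside 42.9% of all probes, and with the 2 principal components 12 beside 21.4%. Without the array that stood apart 34 were called, beside 56.2% of all probes.

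The sign of the relation within batches followed the sign of the difference between batches. Of the 35 other genes that were lower in batch 3, 33 had a positive r with *SEC13* (median 0.36), and of the 11 called genes with a value above 0 in batch 3, 10 had a negative one (median −0.27). The same split appeared against the actin difference, with 33 of the 35 above 0 (median r = 0.35) and 9 of the 11 below 0 (median r = −0.26). Genes share arrays and are not independent, so this is a description with no test. The exceptions were *SEC24D* and *ARL2BP*, lower in batch 3 but below 0 in both relations, *RAB2A*, higher in batch 3 with r = 0.04 against *SEC13*, and *RAB10* and *ARL6IP5*, above 0 in batch 3 with r = 0.24 and 0.01 against the actin difference.

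**Figure D5:**
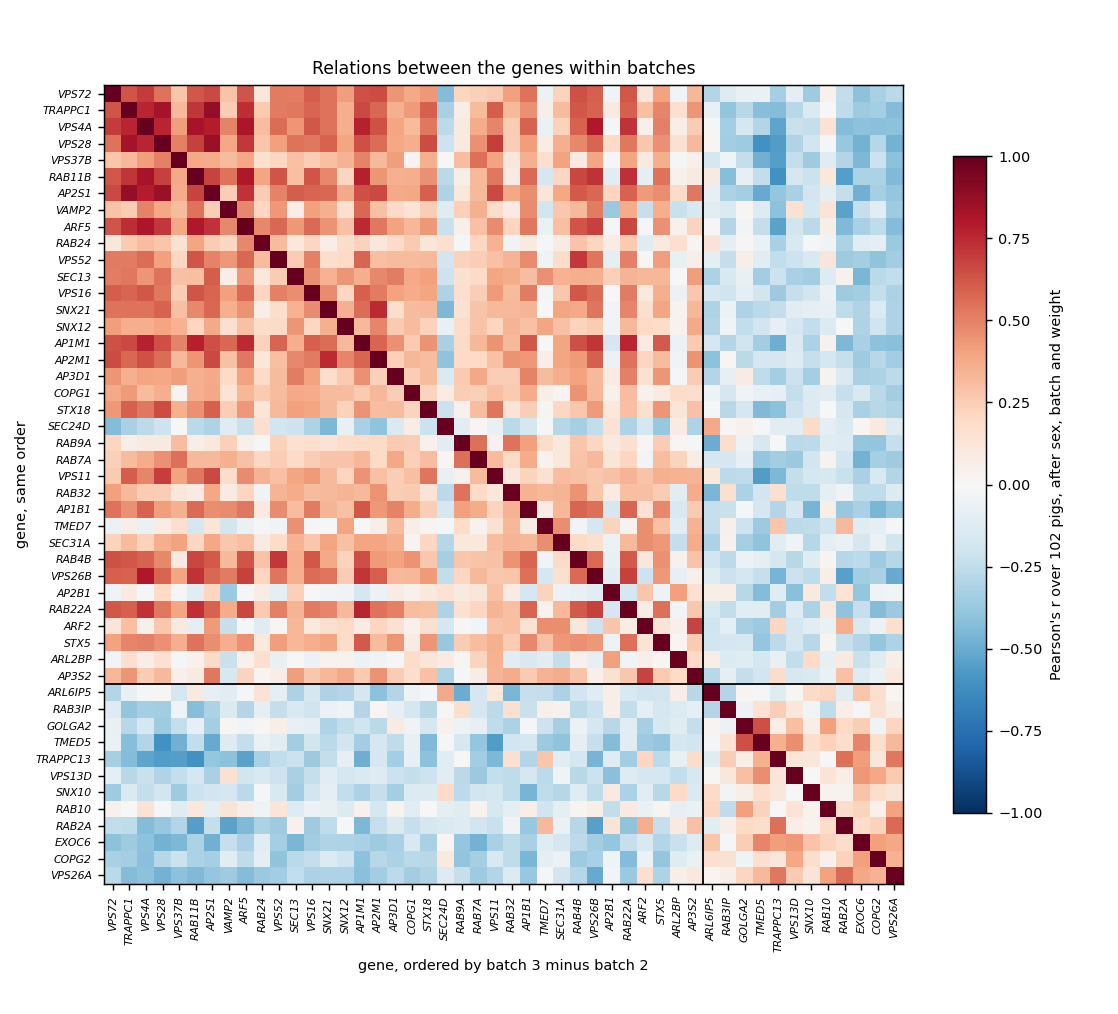
Pearson's r between each 2 of the 48 genes over 102 pigs after sex, batch and weight, with genes ordered by the batch 3 difference and a line between genes lower and higher in batch 3. Most cells on the same side of the line are positive and most cells across it are negative, with a range of −0.61 to 0.88 over the 1128 pairs.

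Each of the 48 genes was then taken in turn as the further effect. Of the 2256 ordered pairs of these genes 37.9% rose together, beside 23.6% over all probes, and 19.0% moved oppositely, beside 21.3%. The closest pair was *AP2S1* and *TRAPPC1* (r = 0.88), followed by *AP2S1* and *VPS28* (0.86) and by *TRAPPC1* and *VPS28* (0.83), genes of the clathrin adaptor, the Golgi tether and the ESCRT machinery. The most opposed were *TMED5* and *VPS28* (−0.61) and *RAB11B* and *TRAPPC13* (−0.60). *RAB10* had the fewest relations: it was related to 1.95% of all probes and to 2 of the other 47 genes, against 67.7% and 39 for *VPS4A*. With the actin difference in the model the share of called pairs went from 56.9% to 42.0%, and with 2 principal components to 13.9%, beside 45.0%, 34.6% and 10.9% over all probes.

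Genes of 1 complex or family did not always rise together. Of the 16 such pairs 8 rose together, 5 moved oppositely and 3 were not called in both directions of the fit. Counted as ordered pairs, 27 of 32 (84.4%) were called, with 17 rising together and 10 opposed. Of all 2256 ordered pairs 56.9% were called, with 37.9% rising together and 19.0% opposed. Over all probes these shares were 45.0%, 23.6% and 21.3%. With 2 principal components in the model the called shares were 12.5% of the 32, 13.9% of the 2256 and 10.9% over all probes. Among the 5 opposed pairs, *COPG1* and *COPG2*, and likewise *VPS26A* and *VPS26B*, are alternative forms of 1 subunit, while *TRAPPC1* and *TRAPPC13*, *SEC24D* and *SEC31A*, and *TMED5* and *TMED7* are different proteins of the same coat, tether or family. In the 13 called pairs Spearman's rho had the sign of r, and permutation p reached at most 0.00971 for r and 0.0292 for rho. These pairs were chosen by the limma call on the same pigs, so the permutation p is not a separate test. Without the 2 pigs farthest from the median of the first gene, r lay between 0.25 and 0.78 in the rising pairs and between −0.51 and −0.28 in the opposed ones. ESCRT pairs were close, with r = 0.76 between *VPS28* and *VPS4A*, 0.50 between *VPS28* and *VPS37B* and 0.42 between *VPS37B* and *VPS4A*. After removal of 2 principal components these were 0.06, 0.11 and −0.22. The AP-2 genes *AP2M1* and *AP2S1* had r = 0.66 (0.65, 0.65 and 0.69 within batches 1, 2 and 3), while *AP2B1* had r = −0.06 with *AP2M1* and 0.22 with *AP2S1*, the latter 0.56, −0.13 and 0.55 within the batches. The AP-1 pair had r = 0.62 (0.04 after the 2 components), the AP-3 pair 0.25 (0.11), and *VPS11* and *VPS16* 0.43 (0.13). *SEC13* and *SEC31A* had r = 0.35, but −0.23 within batch 1, 0.30 within batch 2 and 0.78 within batch 3, and 0.15 after the 2 components.

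The opposed pairs were the ones that also parted between batches, together with *SEC24D* and *SEC31A* (r = −0.28). *VPS26A* and *VPS26B* had r = −0.50 (−0.70 within batch 1, −0.58 within batch 2 and 0.01 within batch 3), *TRAPPC1* and *TRAPPC13* −0.44, *TMED5* and *TMED7* −0.36, and *COPG1* and *COPG2* −0.27. Their limma adjusted p over all probes lay between 3.64e-06 and 0.0348. After removal of the actin difference the 4 values were −0.49, −0.33, −0.31 and −0.29. After removal of 2 principal components they were −0.16, 0.20, −0.41 and −0.10, so that the sign for *TRAPPC1* and *TRAPPC13* turned, as it did for *VPS37B* and *VPS4A* among the rising pairs. *TMED5* and *TMED7*, and on the positive side *AP2M1* and *AP2S1* (r = 0.47), had the largest values among the 13 called pairs after this removal.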

How the data were processed

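Total RNA of *Longissimus dorsi* had been hybridized to porcine expression arrays. The authors normalized them with GCRMA, and the deposited values are log2 intensities (0.80 to 16.00, array medians 6.20 to 6.68). Arrays give no counts, so the number of pigs limits the precision. Of 5493 probes 44 controls were left out, of which 36 were spike-in controls. Symbols came from the platform annotation (2639 probes with 1, 49 with several, 2761 with none), and 47 of the 48 genes were matched in RefSeq. No genome build is given in the sources used here, and no coordinates or sequences are printed.

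limma 3.58.1 (lmFit and eBayes, R 4.3.3) was fitted on sex, slaughter batch as 3 levels (F test, and for directions each difference alone) and carcass weight, two-sided, over 5449 probes. For relations, the residual of a gene in SD was added and its own probe left out. Python 3.11.15 was used for permutations and figures. On simulated data with known changes, estimates were close to the simulated effects. The probe of *STX12* in the study carries 2 symbols and was not used here.

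The genes and lists were chosen with earlier results of these data known. Named genes were *SEC13*, for batch the 12 with the largest F and the first of each role, for sex the 8, for weight and interactions the 3 with the smallest p, the 5 strongest relations with *SEC13* each way, genes whose probes disagree and, per related list, the 2 with the smallest p. Partner subunits and remaining members were named after their values were seen.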

Additional observations from a re-analysis of the deposited data

How the results depend on the processing

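The batch count stayed between 36 and 48 of 48 genes under all alternatives run: quantile normalization, age, principal components, no other covariates, actin difference, spike-in mean, array weights, the filters, arrays or pigs left out, Benjamini-Yekutieli adjustment, all probes of a gene and, chosen after seeing the data, the array mean alone or with the actin difference and each batch difference tested alone. The batch count of 36 stood beside 61.4% of all probes, and that of 48 beside 88.0% without other covariates and 88.8% with 2 principal components. The sex count of 13 became 22 with 2 principal components (beside 39.1% of all probes) and 7 with the array mean (17.1%). It lay between 9 (18.4%) and 18 (32.4%) otherwise. The weight count of 0 became 1 with 2 principal components (beside 258 of all probes) and 42 without other covariates (beside 62.6% of all probes), and was 0 otherwise. The *SEC13* count of 36 (beside 58.8% of all probes) became 12 with 2 principal components (21.4%) and 22 in batch 2 only (40.0%). It was 21 in females only (38.6%) and 17 in males only (26.1%), and lay between 26 and 36 otherwise. The 1283 called pairs of members became 314 with 2 principal components, beside 45.0% and 10.9% over all probes. The components were taken from the values after sex, batch and weight. For these effects they cannot move a difference or slope, and only narrow the spread around the fit. The batch, sex and weight counts with the components thus do not check those results. The causes of the other changes were not tested, and subsets also hold fewer pigs. Directions between batches turned mostly where the array mean was in the model. With the array mean the batch 3 difference turned for *AP1M1* (to 0.084), *RAB22A* (0.14), *RAB4B* (0.044), *VPS26B* (0.016) and *ARL6IP5* (−0.062), and the batch 1 difference for *AP1B1* (0.0033) and *SEC24D* (−0.074). With actin difference and array mean together the batch 3 difference turned for *AP1M1* (0.33), *RAB22A* (0.26), *RAB4B* (0.22), *STX5* (0.17), *VPS26B* (0.12), *SEC31A* (0.034), *RAB3IP* (−0.017) and *ARL6IP5* (−0.046), and the batch 1 difference for *AP1B1* (0.16), *RAB4B* (0.042), *RAB22A* (0.0050) and *SEC24D* (−0.22). With the actin difference alone *RAB3IP* turned to −0.013 in batch 3 and *SEC24D* to −0.19 in batch 1, and with array weights *ARL6IP5* to −0.024 in batch 3. Of 1432 batch values over all 48 genes and alternatives 1355 kept direction and call. Of 207 values of the 13 genes called for sex 185 did, and 22 kept direction but not call; these genes were chosen by that call. The planned relation with *STX12* was not run, because its probe carries 2 symbols. The number of arrays and signal near the bottom of the scale (4 genes) limit what can be seen. No paired analysis was possible because the labels number pigs singly across groups.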
